A study of Mus musculus with 45 samples.

Results

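Scaffolds from 4T1 mice were compared with scaffolds from 4T07 mice, gene by gene. The comparison took the 3 scaffold libraries of each line (libraries 34, 35 and 36 for 4T1, libraries 22, 23 and 24 for 4T07) and the 19673 gene symbols with more than 10 counts over these 6 libraries, of 55367 symbols in the table. The scaffolds were porous polycaprolactone discs that had been placed under the skin of the upper back of young adult female BALB/c mice before the tumor cells were given. The 4T1 and 4T07 mice then received cells of the named line in a mammary fat pad, control mice received no tumor cells, and the scaffolds were taken out on day 14. All mice carried a scaffold, and none carried a genetic change or a drug treatment that the labels name. The whole series holds 45 libraries, 3 for each tissue and group, from scaffolds, lungs, spleens and primary tumors, with 67NR as a further tumor line. The 3 tumor lines come from a single mammary tumor of a BALB/cfC3H mouse, so each condition stands for 1 cell line. The question is whether a tissue away from the tumor differs between a line that forms metastases (4T1) and an invasive line (4T07). The study treats 4T07 as nonmetastatic and lists it as micro-metastatic in its methods.

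An implanted polymer scaffold is walled off by a foreign body response. Macrophages and the giant cells they fuse into cover the material, neutrophils and mast cells enter early, and fibroblasts lay down collagen around and inside the pores. Fat from the surrounding tissue lies against it. A tumor elsewhere in the body can change this tissue through the blood, because it drives the bone marrow to release immature neutrophils and other myeloid cells, and because cytokines such as interferon gamma reach distant tissue. Bulk RNA adds all of these cells together, so fewer cells of a type and less RNA per cell cannot be told apart in any value given here.

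Levels are given as CPM, the count of a gene divided by the total of its library and multiplied by 1e6. The libraries held 8175380, 5087455 and 6438184 counts in 4T07 and 6124977, 5362342 and 5569360 counts in 4T1, so that the floor of 3 counts per library stood for 0.367 to 0.590 CPM. Floors and counting intervals cover counting error only. Libraries 22 and 35 stood apart from the others of their group. On the log2 CPM scale, library 35 had a mean correlation of 0.939 with the other 4T1 libraries and library 22 one of 0.961 with the other 4T07 libraries, both the lowest of their group. No pair of libraries was identical. The share of counts on mitochondrial genes was 6.55%, 6.94% and 6.68% in 4T07 and 8.16%, 6.51% and 7.98% in 4T1. The labels name no separate mice or extraction batches, so p-values measure only the spread between these libraries. As for the label of the tissue, the lists of macrophage genes (8169 to 14850 CPM in sum over the 6 libraries), foreign body giant cell genes (17610 to 24180 CPM) and collagen and matrix genes (16250 to 27420 CPM) were high in every library. Genes of the tumor lines summed to 57.5 to 75.1 CPM in 4T07 and 42.0 to 85.6 CPM in 4T1 scaffolds, against 49.9 to 115 CPM in scaffolds of mice without a tumor, and Tmprss11e, a serine protease on that list, had no counts in any of the 6.

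A gene was called when its adjusted p was under 0.10 and its fold change over 2, the thresholds of the study for scaffolds. The fit was edgeR's quasi-likelihood model over all 12 scaffold libraries, and p-values were adjusted after Benjamini and Hochberg over all 19673 genes. In this comparison 227 genes (1.15%) were called. Relative to 4T07 scaffolds, 143 genes (0.727%) were higher and 84 genes (0.427%) were lower in 4T1 scaffolds. At any fold, 571 genes (2.9%) had an adjusted p under 0.10, and 3130 genes (15.9%) had an unadjusted p under 0.05. The 3 libraries of 4T1 lay entirely above those of 4T07 in 1496 genes (7.6%) and entirely below in 2311 genes (11.7%), and 222 of the 227 called genes were among these. The median log2 fold change over all genes was -0.01. These shares over all genes are the reference for the counts of list members in the following. The count of calls depended on single libraries. It was 211 without library 22, 48 without 23, 17 without 24, 299 without 34, 244 without 35 and 122 without 36. Fitting only the 6 libraries, without the control and 67NR scaffolds that share in the estimate of the spread, gave 32 called genes, 22 higher and 10 lower. Of the 67 called genes named in the following, 11 kept their call under every alternative in which they were tested: Gm6407, Gm25008, Gm42047, Gm10521, Lrrn4cl, Rnase2a, Spon2, Cd300c2, Ppargc1b, Tmem258 and Tmx1. Gm6407 and Gm42047 had too few counts to be tested with a minimum of 10 counts in every compared library. The number that kept it was 47 without library 22, 25 without 23, 13 without 24, 57 without 34, 47 without 35 and 36 without 36.

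**Figure D1:**
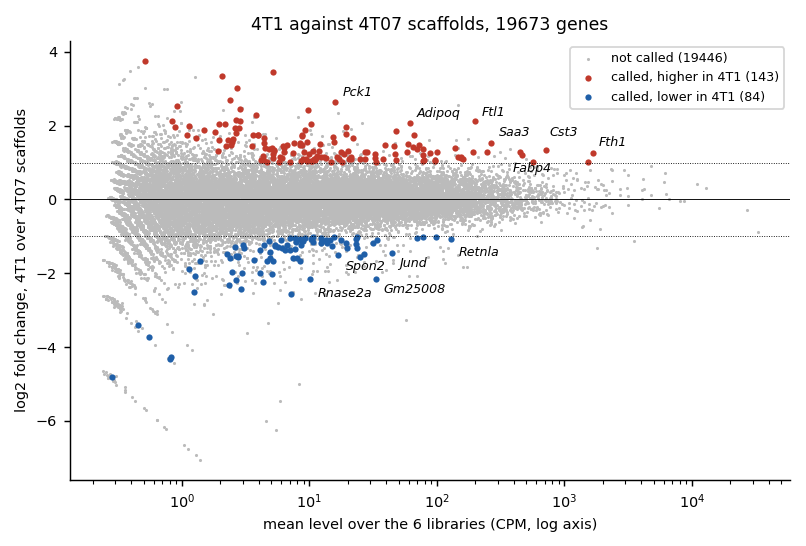
Each of the 19673 points is 1 gene, with its mean level over the 6 libraries (CPM, log axis) against its log2 fold change, 4T1 over 4T07. Red points are the 143 genes called higher in 4T1 and blue points the 84 called lower, dotted lines mark a 2-fold change, and the called genes lie mostly at low and middle levels, with ferritin heavy chain (Fth1) among the few at over 1000 CPM.

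Genes of fat cells were higher in 4T1 scaffolds. Of 11 tested adipocyte genes, 5 were called, all higher in 4T1 scaffolds, where 0.727% of all genes were called higher. The median log2 fold change of the list was 1.36, against -0.01 over all genes. Adipoq encodes adiponectin, a hormone that fat cells secrete. It stood at 25.4, 24.4 and 21.1 CPM in 4T07 scaffolds and at 82.3, 135 and 77.4 CPM in 4T1 scaffolds. All 3 4T1 libraries lay above all 3 4T07 libraries, with library 35 the highest, and the log2 fold change was 2.08 (SE 0.33, adjusted p = 0.0222). Plin1, which coats the lipid droplet, was at 9.30, 6.68 and 7.77 CPM in 4T07 and at 26.5, 43.6 and 21.7 CPM in 4T1 (log2 fold change 1.96, SE 0.33, adjusted p = 0.0196). Again the groups did not overlap and library 35 was the highest. Fabp4, a fatty acid carrier made by fat cells and also by macrophages, was the most abundant of the called members, at 289, 284 and 232 CPM in 4T07 and at 535, 638 and 721 CPM in 4T1 (log2 fold change 1.28, SE 0.19, adjusted p = 7.57e-03).

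The other 2 called adipocyte genes were higher in 4T1 as well, at lower levels. Cidec, which fuses lipid droplets, was at 13.2, 8.06 and 10.9 CPM in 4T07 and at 30.9, 37.3 and 31.1 CPM in 4T1 (log2 fold change 1.65, SE 0.43, adjusted p = 0.0908). Retn, which encodes the fat cell hormone resistin, was at 7.22, 8.65 and 3.42 CPM in 4T07 and at 17.0, 15.1 and 20.7 CPM in 4T1 (log2 fold change 1.50, SE 0.36, adjusted p = 0.0635). In both genes the groups did not overlap. Over the list, 10 of 11 members had a positive log2 fold change, and 9 had an unadjusted p under 0.05 (15.9% of all genes). In 8 members all 4T1 libraries lay above all 4T07 libraries (7.6% of all genes). The summed level of the list was 4250 to 5195 CPM in 4T07 and 5260 to 7226 CPM in 4T1. Between 70.8% and 87.1% of that sum was Lpl, the lipoprotein lipase that macrophages also make, which was not called (log2 fold change 0.27, adjusted p = 0.573) and is singled out after its values were seen. DESeq2 called 7 members and limma voom 5. Without one library the count was 3 (without 22), 3 (without 23), 1 (without 24), 4 (without 34), 4 (without 35) and 3 (without 36), and with an offset for mRNA length it was 3.

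Enzymes of fat and glucose metabolism were among the genes with the largest changes. Pck1, the key enzyme of gluconeogenesis and of glycerol synthesis in fat, was at 4.16, 5.11 and 4.04 CPM in 4T07 and at 12.9, 43.1 and 25.9 CPM in 4T1 (log2 fold change 2.65, SE 0.56, adjusted p = 0.0589). Cyp2e1, a cytochrome P450 of liver and fat, was at 3.91, 2.75 and 2.64 CPM in 4T07 and at 15.8, 23.3 and 10.4 CPM in 4T1 (log2 fold change 2.41, SE 0.54, adjusted p = 0.0608). Library 35 was the highest in both genes, but the lowest 4T1 library still stood well above the highest 4T07 library. Dgat2, which makes the last step of triglyceride synthesis, was the only called member of 22 lipid synthesis and handling genes (median log2 fold change 0.24), at 4.53, 4.32 and 4.19 CPM in 4T07 and at 10.1, 17.7 and 9.34 CPM in 4T1 (log2 fold change 1.53, SE 0.27, adjusted p = 0.0222). Among genes chosen after their values were seen, 3 more that fat tissue uses were called. Plin4, a further lipid droplet coat protein, was at 3.57 to 4.77 CPM in 4T07 and 10.8 to 17.2 CPM in 4T1 (log2 fold change 1.73, adjusted p = 0.0442). Gpd1, glycerol-3-phosphate dehydrogenase, was at 7.22 to 8.26 CPM and 13.4 to 20.3 CPM (log2 fold change 1.16, adjusted p = 0.0481). Cdo1, cysteine dioxygenase, was at 9.48 to 13.8 CPM and 22.1 to 38.2 CPM (log2 fold change 1.32, adjusted p = 0.0858).

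In control scaffolds Adipoq lay between the levels in 4T07 and 4T1 scaffolds. In 67NR scaffolds Adipoq and Plin1 were spread more widely than in 4T07 scaffolds. Adipoq ranged from 50.8 to 65.5 CPM in control and from 24.8 to 74.9 CPM in 67NR scaffolds, and Plin1 from 13.2 to 21.9 CPM and from 9.05 to 26.5 CPM. Against control scaffolds, the log2 fold change of Adipoq was -1.50 in 4T07 (adjusted p = 0.0103) and 0.58 in 4T1 (adjusted p = 0.467). The same 4T07 libraries enter this value and the direct comparison, so the value against control is not a separate observation.

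Ferritin, the iron store of the cell, was higher in 4T1 scaffolds. The light chain gene Ftl1 was at 102, 97.3 and 29.8 CPM in 4T07 and at 169, 310.1 and 480.3 CPM in 4T1 (log2 fold change 2.12, SE 0.51, adjusted p = 0.0858), and library 24 was far below the rest. The heavy chain gene Fth1, chosen after its values were seen, was at 1060, 1114 and 875 CPM in 4T07 and at 1899, 2248 and 2874 CPM in 4T1 (log2 fold change 1.25, SE 0.22, adjusted p = 0.0196). The groups did not overlap in either gene. The pseudogene Ftl1-ps1 gave 12.8, 25.2 and 24.1 CPM in 4T07 and 31.7, 122 and 68.6 CPM in 4T1 (log2 fold change 1.87, adjusted p = 0.0633). Because Ftl1 and its pseudogene copies are nearly identical in sequence, how the counting divided reads between them is uncertain, and the call of each alone is uncertain too. Several other genes among the largest changes were predicted genes, 3 of them higher (Gm6407, Gm8129 and Gm11956, log2 fold change 3.45, 1.89 and 1.75) and 5 lower (Gm42047, Gm25008, Gm43811, Gm10521 and Gm11592, log2 fold change between -2.55 and -1.48). Gm6407 went from 0.734 to 1.09 CPM in 4T07 to 6.46 to 14.0 CPM in 4T1.

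The protease inhibitors Cst3 and Cstb were called higher in 4T1 scaffolds. Cst3, the secreted cystatin C, was at 456, 495 and 300 CPM in 4T07 and at 701, 822 and 1516 CPM in 4T1 (log2 fold change 1.33, SE 0.30, adjusted p = 0.0487). Cstb, the cystatin that acts inside the cell, was at 324, 396 and 417 CPM in 4T07 and at 595, 843 and 821 CPM in 4T1 (log2 fold change 1.02, SE 0.20, adjusted p = 0.0349). Both were chosen after their values were seen, and in both the groups did not overlap.

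Of the lists of mature neutrophil genes and of myeloid suppressor effector genes, 1 member each was called, both higher in 4T1 scaffolds. Clec4d, a C-type lectin receptor of neutrophils and macrophages, was the 1 called gene of 12 mature neutrophil genes. It was at 42.9, 57.8 and 59.5 CPM in 4T07 and at 86.9, 142 and 143 CPM in 4T1 (log2 fold change 1.25, SE 0.25, adjusted p = 0.0376), and the groups did not overlap. The median log2 fold change of that list was 0.98, with 8 members positive and 4 negative. In 5 members all 4T1 libraries lay above all 4T07 libraries and in 2 below, against 7.6% and 11.7% of all genes. The summed level of the list was 2838 to 8649 CPM in 4T07 and 3206 to 4561 CPM in 4T1, with library 22 the highest. Wfdc17, a small secreted protein of myeloid cells, was the 1 called gene of 18 myeloid suppressor effector genes (10 positive and 8 negative, median log2 fold change 0.18), at 94.4, 73.5 and 107 CPM in 4T07 and at 201, 169 and 226 CPM in 4T1 (log2 fold change 1.16, SE 0.25, adjusted p = 0.0442). Control scaffolds lay above both lines in Wfdc17, at 239 to 342 CPM.

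The next genes are no members of these lists and were chosen after their values were seen. Cd300c2, a receptor of myeloid cells, was at 24.2, 31.5 and 37.9 CPM in 4T07 and at 61.7, 117 and 83.0 CPM in 4T1 (log2 fold change 1.51, SE 0.22, adjusted p = 7.57e-03). Clec4n, which encodes the fungal sugar receptor dectin-2, was at 50.7 to 73.0 CPM in 4T07 and at 106 to 197 CPM in 4T1 (log2 fold change 1.28, adjusted p = 0.0459). C5ar1, the receptor for the complement fragment C5a, was at 6.36 to 7.30 CPM and 11.1 to 21.8 CPM (log2 fold change 1.31, adjusted p = 0.0426). The common cytokine receptor chain Il2rg followed, at 33.4 to 42.6 CPM in 4T07 and at 56.9 to 168 CPM in 4T1 (log2 fold change 1.36, adjusted p = 0.0608), where library 35 alone reached 168 CPM. Saa3, an acute phase protein made by macrophages and fat tissue, was at 127, 136 and 158 CPM in 4T07 and at 310.4, 418 and 456 CPM in 4T1 (log2 fold change 1.53, SE 0.39, adjusted p = 0.0878). In none of these genes did the groups overlap. The secreted lectins Reg1 and Reg3g, best known from pancreas and gut, were also higher, with Reg1 at 15.8 to 24.4 CPM in 4T07 and 32.3 to 73.8 CPM in 4T1 (log2 fold change 1.48, adjusted p = 0.0495) and Reg3g at 46.8 to 83.2 CPM and 113 to 156 CPM (log2 fold change 1.06, adjusted p = 0.0413).

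Chemokines and their receptors gave 1 called gene in each direction. Of 32 tested chemokines and receptors, 28 had a positive log2 fold change (median 0.37). At an unadjusted p under 0.05, 7 were higher and 1 lower (15.9% of all genes in either direction). In 11 members all 4T1 libraries lay above all 4T07 libraries and in 1 below (7.6% and 11.7% of all genes). Cxcl3, which attracts neutrophils, was called higher on few counts, 3, 1 and 3 in the 4T07 libraries and 5, 38 and 19 in the 4T1 libraries. Per library total, the 4T1 level was 10.2 times the 4T07 level (95% exact interval of the counts 4.68 to 26.5, adjusted p = 0.0599). Cxcl9, which attracts T cells and is induced by interferon gamma, was called lower and is described with that group. DESeq2 called 3 members of the list and limma voom 1. No member was called higher when 22, 23, 24, 35 or 36 was left out, and 2 were when 34 was.

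**Figure D2:**
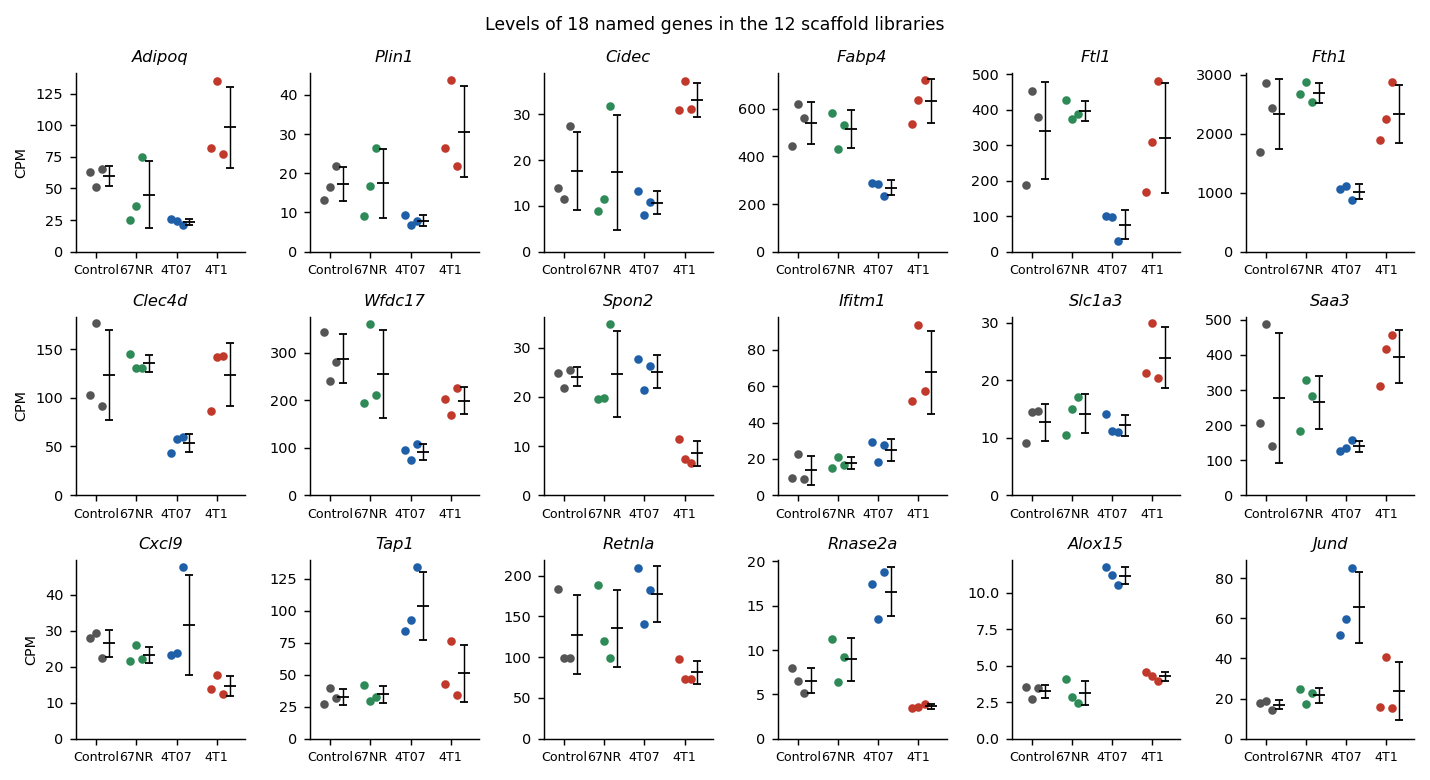
Levels (CPM, axes from 0) of 18 named genes in the 12 scaffold libraries, with each library as a point and the mean ± SD of the 3 libraries as a bar beside them. The mean of the 4T07 libraries is the lowest of the 4 groups in Adipoq, Fabp4, Fth1, Clec4d and Wfdc17. All 3 4T07 libraries lie above all others in Rnase2a, Alox15, Jund and Tap1. In the signature genes Spon2, Ifitm1 and Slc1a3 the 4T1 libraries stand apart from the other 3 groups.

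Some genes that interferon gamma induces were lower in 4T1 scaffolds. Interferon gamma, the cytokine of T and NK cells, raises guanylate binding proteins, antigen presentation and the chemokines that draw T cells. Of 21 tested members, 3 were called, all lower in 4T1 scaffolds, where 0.427% of all genes were called lower. The list had a median log2 fold change of -0.43, with 15 members negative. At an unadjusted p under 0.05, 8 were lower and none higher, against 15.9% of all genes in either direction. Cxcl9 was at 23.4, 23.8 and 47.8 CPM in 4T07 and at 13.9, 17.7 and 12.4 CPM in 4T1 (log2 fold change -1.08, SE 0.25, adjusted p = 0.0556). Gbp8, a guanylate binding protein, was at 8.44, 4.52 and 5.75 CPM in 4T07 and at 2.94, 2.98 and 1.80 CPM in 4T1 (log2 fold change -1.25, SE 0.32, adjusted p = 0.0732). In both the groups did not overlap. Ido1, which breaks down tryptophan, rested on 6, 6 and 18 counts in 4T07 and on 0, 1 and 0 counts in 4T1. The 4T07 level was 26.0 times the 4T1 level per library total (95% exact interval of the counts 4.32 to 1060, adjusted p = 0.0858).

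These calls moved with the tool and the library. DESeq2 called 2 of the 21 genes and limma voom 1, and no member was called when only the 2 groups were fitted. The count was 2 without library 22, 0 without 23, 0 without 24, 1 without 34, 3 without 35 and 0 without 36. Of 16 MHC class I and II presentation genes (median log2 fold change -0.01), 6 had an unadjusted p under 0.05, 4 higher and 2 lower in 4T1. DESeq2 called 2 of the 16. Tap1, which carries peptides to class I molecules, was the 1 called by edgeR, at 84.4, 93.2 and 134 CPM in 4T07 and at 42.5, 76.5 and 34.5 CPM in 4T1 (log2 fold change -1.01, SE 0.25, adjusted p = 0.0656). Here library 35 came close to the lowest 4T07 library. H2-T24, a non-classical class I gene chosen after its values were seen, was at 16.1 to 25.3 CPM in 4T07 and at 6.15 to 10.9 CPM in 4T1 (log2 fold change -1.11, adjusted p = 0.0523). In the broader list of 30 interferon-stimulated genes, most of which respond to type I interferon, 1 gene was called and it was higher, Ifitm1, while the median log2 fold change was -0.06 with 13 members positive and 17 negative.

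Of 7 eosinophil genes and of 12 alternatively activated macrophage genes, 1 each was called, both lower in 4T1 scaffolds. Rnase2a, which is on neither list, belongs to the eosinophil-associated ribonucleases and was among the largest changes. It was at 17.5, 13.6 and 18.8 CPM in 4T07 and at 3.43, 3.54 and 3.95 CPM in 4T1, a gap far wider than the spread within either group (log2 fold change -2.15, SE 0.27, adjusted p = 2.70e-03). Alox15, the 12/15-lipoxygenase of eosinophils and macrophages, was as even, at 11.7, 11.2 and 10.6 CPM in 4T07 and at 4.57, 4.29 and 3.95 CPM in 4T1 (log2 fold change -1.34, SE 0.25, adjusted p = 0.0279). It was the 1 called gene of 7 tested eosinophil genes, of which 6 had a negative log2 fold change (median -1.19). Their summed level was 67.1 to 380 CPM in 4T07 and 33.0 to 126 CPM in 4T1, so that the groups overlapped, and library 22 was the highest. Without library 22 the median of the list was -0.51. Retnla, a secreted protein that interleukin 4 induces in macrophages, was the 1 called gene of 12 alternatively activated macrophage genes, of which 8 had a positive and 4 a negative log2 fold change (median 0.18), at 209, 141 and 182 CPM in 4T07 and at 97.5, 73.5 and 73.1 CPM in 4T1 (log2 fold change -1.08, SE 0.30, adjusted p = 0.0980). Timd4, a receptor of resident macrophages for dying cells that was chosen after its values were seen, was at 3.74 to 11.6 CPM in 4T07 and at 0.539 to 3.10 CPM in 4T1 (log2 fold change -1.99, adjusted p = 0.0798).

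Other genes that were lower in 4T1 scaffolds had no single theme among the lists. Jund, a subunit of the AP-1 transcription factor, was the 1 called gene of 20 immediate early genes (median log2 fold change 0.15), at 51.5, 59.8 and 85.1 CPM in 4T07 and at 15.7, 40.7 and 15.1 CPM in 4T1 (log2 fold change -1.45, SE 0.31, adjusted p = 0.0496). Library 35 stood apart from the other 4T1 libraries. Atp2a3, a calcium pump of the endoplasmic reticulum in blood cells, was at 48.6, 24.6 and 40.1 CPM in 4T07 and at 16.0, 10.1 and 11.0 CPM in 4T1 (log2 fold change -1.56, SE 0.30, adjusted p = 0.0349). Treml1, a receptor of platelets, was at 20.4, 9.24 and 9.01 CPM in 4T07 and at 6.37, 2.61 and 2.69 CPM in 4T1 (log2 fold change -1.67, adjusted p = 0.0442), and Srpk3, a kinase of muscle, was at 15.2, 3.34 and 6.21 CPM and 2.45, 2.61 and 0.898 CPM (log2 fold change -2.02, adjusted p = 0.0608). In both, library 22 was the highest. Col6a5, a collagen VI chain, was at 7.71, 10.8 and 17.6 CPM in 4T07 and at 3.76, 3.73 and 4.13 CPM in 4T1 (log2 fold change -1.59, adjusted p = 0.0693). Among genes chosen after their values were seen, Ppargc1b, a coactivator of mitochondrial genes, was at 37.9, 48.6 and 46.9 CPM in 4T07 and at 15.4, 20.9 and 20.8 CPM in 4T1 (log2 fold change -1.19, SE 0.18, adjusted p = 7.57e-03). Piezo1, a channel opened by stretch, was at 24.7 to 35.3 CPM and 9.34 to 12.1 CPM (log2 fold change -1.33, adjusted p = 0.0264), and Il3ra, the receptor for interleukin 3, at 23.8 to 41.2 CPM and 14.4 to 16.5 CPM (log2 fold change -1.02, adjusted p = 0.0426).

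The 9-gene signature of the study was selected on these same scaffolds, so its members are not independent evidence of a difference, and their values are given as a description. By the rule used here, 3 of the 9 were called. Ifitm1, an interferon-induced membrane protein, was at 29.1, 18.1 and 27.7 CPM in 4T07 and at 51.8, 93.8 and 57.1 CPM in 4T1 (log2 fold change 1.46, SE 0.31, adjusted p = 0.0487), against 8.66 to 22.8 CPM in control and 14.8 to 21.2 CPM in 67NR scaffolds. Slc1a3, a glutamate transporter, was at 14.2, 11.2 and 11.0 CPM in 4T07 and at 21.2, 30.0 and 20.5 CPM in 4T1 (log2 fold change 1.00, SE 0.22, adjusted p = 0.0442), against 9.02 to 14.6 CPM in control and 10.5 to 17.0 CPM in 67NR scaffolds. Spon2, a secreted matrix protein, was at 27.6, 21.4 and 26.4 CPM in 4T07 and at 11.4, 7.46 and 6.64 CPM in 4T1 (log2 fold change -1.52, SE 0.25, adjusted p = 0.0141), against 21.9 to 25.5 CPM in control and 19.6 to 34.9 CPM in 67NR scaffolds. In Ifitm1, Slc1a3 and Spon2 the 4T1 libraries stood apart from the libraries of all 3 other groups.

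The remaining 6 signature genes were not called. Dhx9, an RNA helicase, was at 96.6, 85.3 and 90.2 CPM in 4T07 and at 120.2, 126 and 130.2 CPM in 4T1, with a log2 fold change of 0.51 (adjusted p = 0.0803) that is under the 2-fold limit. Control scaffolds lay still higher in Dhx9, at 164 to 170.0 CPM. Pja2, a ubiquitin ligase, had a log2 fold change of 0.39 (adjusted p = 0.183) and Soga1 one of -0.43 (adjusted p = 0.198), and in both the groups did not overlap. Dusp12 (0.06, adjusted p = 0.872), Ndufs1 (0.03, adjusted p = 0.947) and Fhl1 (-0.35, adjusted p = 0.736) overlapped between the groups. The count of called members was 3 with DESeq2 and 2 with limma voom, and the 2 called higher were not called without library 23 or without library 24.

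Called genes in 4T1 scaffolds also included Ccn2, Id3, Cma1 and Car9, all higher. Ccn2, the connective tissue growth factor, was at 4.53, 9.24 and 13.1 CPM in 4T07 and at 16.2, 46.8 and 26.8 CPM in 4T1 (log2 fold change 1.77, SE 0.38, adjusted p = 0.0487). Id3, an inhibitor of transcription factors that BMP and TGF-beta signals induce, was the 1 called gene of 25 tested TGF-beta and BMP family genes (median log2 fold change 0.20), at 20.6, 17.3 and 14.8 CPM in 4T07 and at 30.0, 60.1 and 22.1 CPM in 4T1 (log2 fold change 1.11, SE 0.28, adjusted p = 0.0761). Library 35 was the highest in both. Cma1, the mast cell chymase, was the 1 called gene of 8 mast cell genes (5 positive and 3 negative, from -1.30 to 1.11, median log2 fold change 0.76), at 7.58, 4.72 and 5.90 CPM in 4T07 and at 15.8, 8.95 and 13.5 CPM in 4T1 (log2 fold change 1.11, SE 0.26, adjusted p = 0.0531). The mast cell list summed to 139 to 198 CPM in 4T07 and 216 to 339 CPM in 4T1, so the sums did not overlap. Without one library, 2 mast cell genes were called higher (without 22), 1 (without 35) or none (without 23, 24, 34 or 36), and 1 was called lower without 34. Car9, the carbonic anhydrase that hypoxia induces, was the 1 called gene of 25 hypoxia and glycolysis genes (median log2 fold change 0.08), at 0.979, 1.18 and 1.24 CPM in 4T07 and at 3.43, 5.41 and 1.44 CPM in 4T1 (log2 fold change 1.61, adjusted p = 0.0852). These are levels near the floor, and limma voom called neither Id3 nor Car9. Among further large changes, Lrrn4cl, a membrane protein, was at 4.28, 3.54 and 4.35 CPM in 4T07 and at 17.3, 20.5 and 11.9 CPM in 4T1 (log2 fold change 2.05, SE 0.25, adjusted p = 2.70e-03). Fam221b was at 27.4, 26.3 and 37.6 CPM in 4T07 and at 53.2, 184 and 68.2 CPM in 4T1 (log2 fold change 1.75, adjusted p = 0.0972), a difference carried in good part by library 35. Adam9, a membrane protease, and Emilin1, a protein of elastic fibers, both chosen after their values were seen, had log2 fold changes of 1.48 (adjusted p = 0.0586) and 1.02 (adjusted p = 0.0621).

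No mitochondrially encoded gene passed the fold limit. All 7 tested mitochondrially encoded genes had a positive log2 fold change (median 0.72), 4 of them with an adjusted p under 0.10, and edgeR, DESeq2 and limma voom called none, while 6 had an unadjusted p under 0.05. mt-Cytb, a subunit of complex III, was at 4739, 5363 and 4055 CPM in 4T07 and at 6367, 8089 and 8311 CPM in 4T1 (log2 fold change 0.72, SE 0.19, adjusted p = 0.0803). mt-Nd4, a subunit of complex I, overlapped between the groups, at 12030, 12950 and 10050 CPM in 4T07 and at 15760, 9617 and 16910 CPM in 4T1 (log2 fold change 0.32, adjusted p = 0.529). Of 25 nuclear genes of the respiratory chain and ATP synthase, 23 had a positive log2 fold change (median 0.36) and 10 an unadjusted p under 0.05, edgeR and limma voom called none and DESeq2 called 1. Ndufb8 (log2 fold change 0.16, adjusted p = 0.711) and Atp5a1 (0.09, adjusted p = 0.838), the most abundant of them, did not pass the test. Outside that list, the small complex I subunit Ndufa1 was called, at 128, 117 and 94.6 CPM in 4T07 and at 227, 245 and 334 CPM in 4T1 (log2 fold change 1.29, SE 0.18, adjusted p = 7.57e-03).

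Ndufa1 is 1 of several short, widely expressed genes among those called, and it was chosen after its values were seen, as were the next 4. Tmem258, a small subunit of the enzyme that adds sugar chains to proteins, was at 110, 71.9 and 55.0 CPM in 4T07 and at 193, 206 and 203 CPM in 4T1 (log2 fold change 1.39, SE 0.20, adjusted p = 7.57e-03). Tmx1, a thioredoxin-like protein of the endoplasmic reticulum, was at 118 to 173 CPM and 325 to 390 CPM (log2 fold change 1.28, adjusted p = 8.84e-03), and Sumo3, a ubiquitin-like protein, at 249 to 338 CPM and 546 to 742 CPM (log2 fold change 1.21, adjusted p = 0.0196). Cd63-ps, a pseudogene of the lysosomal membrane protein Cd63 whose reads cannot be told with certainty from those of its parent, was at 934 to 1097 CPM and 1939 to 2073 CPM (log2 fold change 1.01, adjusted p = 0.0686). In all of these the groups did not overlap.

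The genes called higher were shorter than the rest. Among protein-coding genes with a known mRNA, the median mRNA length was 1627 bases for 96 genes called higher, 3166.5 bases for 46 genes called lower and 3006 bases for all 13100. The GC content of the mRNA had a median of 49.6%, 55.1% and 50.2% in the same order. By library, the 1 in 20 shortest genes had a median log2 level of -0.22, -0.46 and -0.41 relative to the scaffold average in the 4T07 libraries, of -0.04, -0.29 and 0.10 in the 4T1 libraries, and of 0.39, 0.22 and 0.17 in the control libraries. With an offset for mRNA length 198 genes were called, 183 of them among the 227, and with an offset for GC content 203 were called, 192 of them among the 227. Both offsets were set only for genes with a known mRNA and left at 0 for the others. Such an mRNA was known for 13439 of the 19673 tested genes, 97 of the 143 called higher and 47 of the 84 called lower. Calls kept in the other genes therefore do not bear on length or GC content. Pseudogenes made up 12.8% of the genes called higher and 11.4% of those called lower, against 5.11% of all genes with a known type. The part of mRNA length and RNA quality in these calls was not tested beyond these offsets.

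**Figure D3:**
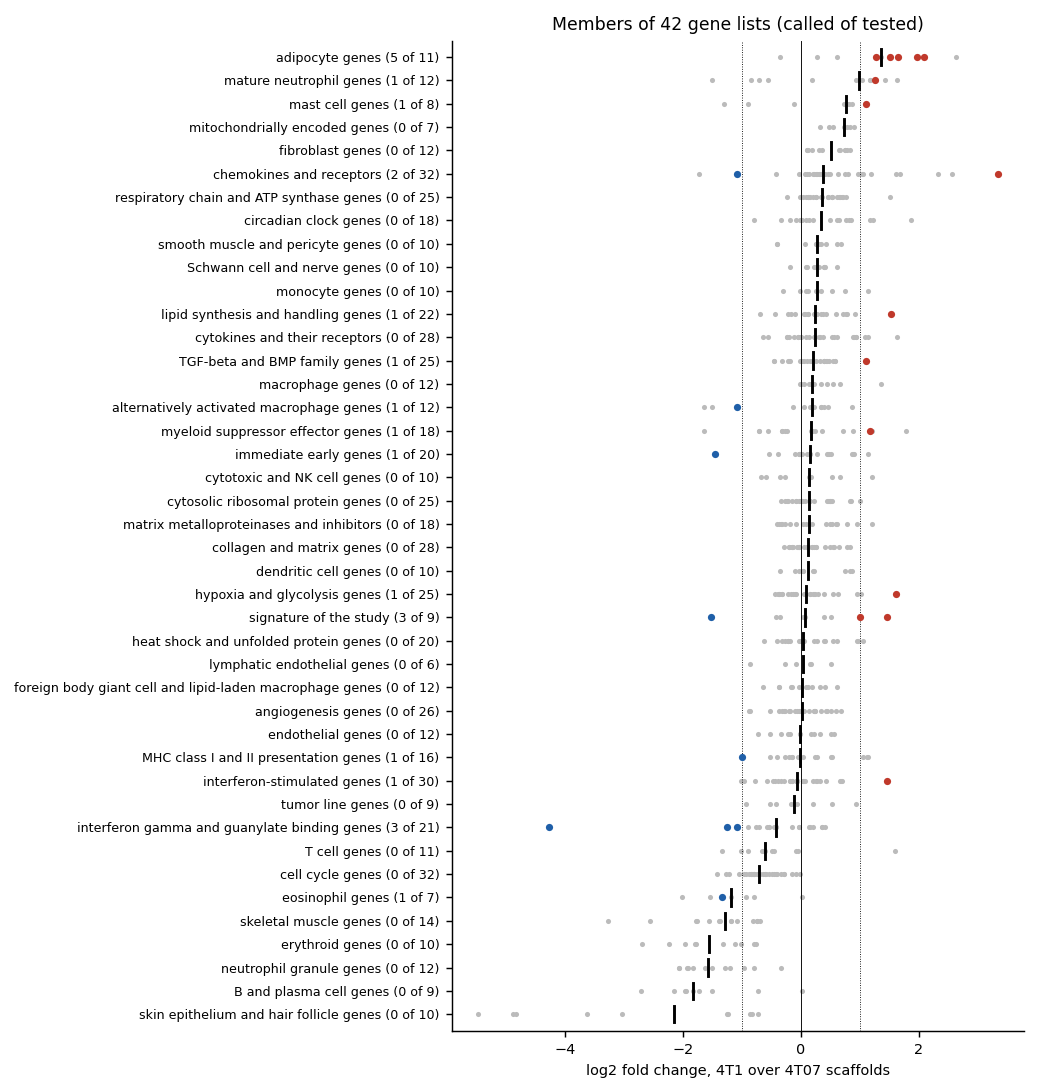
Log2 fold change (4T1 over 4T07) of each tested member of 42 gene lists, ordered by the list median, which is drawn as a black bar. Red and blue points are members called higher and lower, dotted lines mark a 2-fold change, and the number of called of tested members stands beside each name, with 5 of 11 in the adipocyte list and none in the neutrophil granule, erythroid and skin lists, whose medians are between -2.15 and -1.55.

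The lists with the lowest medians held no called gene. Neutrophil granule genes are made in the bone marrow by immature neutrophils. All 12 had a negative log2 fold change (median -1.57), 5 had an unadjusted p under 0.05, edgeR and limma voom called none and DESeq2 called 1. Ngp was at 550.4, 134 and 74.6 CPM in 4T07 and at 136, 43.6 and 26.2 CPM in 4T1 (log2 fold change -1.83, adjusted p = 0.351), and Camp, an antimicrobial peptide of the granules, at 261, 56.4 and 21.8 CPM and 45.4, 18.3 and 13.7 CPM (log2 fold change -2.07, adjusted p = 0.295). The groups overlapped in both, and library 22 was the highest of all. Both lines were far above the control scaffolds, where Ngp did not pass 5.54 CPM and Camp did not pass 3.48 CPM. The median of the list was -0.26 without library 22 and -2.48 without library 34.

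Erythroid genes were highest in library 22 too. All 10 had a negative log2 fold change (median -1.55), 2 had an unadjusted p under 0.05, and DESeq2 called 1. The globin genes Hba-a1 (5324, 1460 and 545 CPM in 4T07, 2593, 804 and 656 CPM in 4T1) and Hbb-bs (10230, 3010 and 1354 CPM in 4T07, 3185, 1777 and 1492 CPM in 4T1) had adjusted p-values of 0.705 and 0.442. Without library 22 the median was -0.11. B and plasma cell genes (9 tested, 8 negative, median -1.83, 4 with an unadjusted p under 0.05, DESeq2 calling 1) included Ighm, the heavy chain of IgM, at 463, 124 and 74.4 CPM in 4T07 and 133, 55.2 and 34.1 CPM in 4T1 (adjusted p = 0.341), and Sdc1, a surface proteoglycan of plasma cells (log2 fold change 0.03, adjusted p = 0.967). Their median was -0.52 without library 22. Cell cycle genes were negative in all 32 members (median -0.71), 8 with an unadjusted p under 0.05 and 2 called by DESeq2, and Top2a (408, 148 and 128 CPM in 4T07, 182, 98.1 and 92.7 CPM in 4T1, adjusted p = 0.336) and Birc5 (309, 77.3 and 82.2 CPM in 4T07, 116, 54.3 and 78.5 CPM in 4T1, adjusted p = 0.521) were again highest in library 22. Without that library the median was -0.05. For the 10 skin epithelium and hair follicle genes the median went from -2.15 to -0.00473 without it (5 with an unadjusted p under 0.05, none called by any of the 3 tools). In each of these 5 lists the summed level was highest in library 22.

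Skeletal muscle genes, markers of the muscle layer under the skin, were negative in all 14 tested members (median -1.28), 1 with an unadjusted p under 0.05, and none of the 3 tools called one. Acta1 was at 125, 65.7 and 75.8 CPM in 4T07 and at 12.7, 77.8 and 11.7 CPM in 4T1 (adjusted p = 0.705), so library 35 lay with the 4T07 libraries. Myh4, a fast myosin, was at 199.9, 86.1 and 25.2 CPM and at 15.7, 13.4 and 2.16 CPM without overlap (adjusted p = 0.292). Control scaffolds spanned the whole range, from 0.420 to 114 CPM for Acta1. The median was -1.13 without library 22 and -2.52 without library 35. Of 11 tested T cell genes, 10 were negative (median -0.61), and 4 were lower and 1 higher at an unadjusted p under 0.05. None was called by the 3 tools, and the median was -0.26 without library 22. Trac, the constant chain of the T cell receptor, was at 15.4, 11.0 and 11.8 CPM in 4T07 and at 7.84, 9.32 and 7.36 CPM in 4T1 (log2 fold change -0.61, adjusted p = 0.260) without overlap, whereas Il7r was at 612 to 1104 CPM and 516 to 860.2 CPM with a log2 fold change of -0.09.

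The summed levels of fibroblast and macrophage genes were highest in library 35. All 12 fibroblast genes had a positive log2 fold change (median 0.50), 5 with an unadjusted p under 0.05, and none was called by the 3 tools. Col1a1 (2471, 3395 and 3358 CPM in 4T07, 3115, 3827 and 2780 CPM in 4T1, log2 fold change 0.10, adjusted p = 0.842) and Col1a2 (log2 fold change 0.13, adjusted p = 0.830), the chains of collagen I, did not pass the test, and the median of the list was 0.40 without library 35. Of 12 macrophage genes 11 were positive (median 0.19), none was called by the 3 tools, and 2 had an unadjusted p under 0.05, where the share over all genes was 15.9%. Lyz2, lysozyme, was at 2355, 2544 and 2556 CPM in 4T07 and at 3235, 4088 and 4193 CPM in 4T1 (log2 fold change 0.66, SE 0.19, adjusted p = 0.0926), under the 2-fold limit though the groups did not overlap. Apoe was at 2986, 3779 and 3339 CPM in 4T07 and at 4196, 7336 and 3134 CPM in 4T1 (log2 fold change 0.55, adjusted p = 0.276). Tumor line genes H19 (log2 fold change 0.52, adjusted p = 0.307) and Cdh1 (-0.52, adjusted p = 0.719) did not pass the test, and of 9 tested members of that list 1 had an unadjusted p under 0.05 and none was called by the 3 tools.

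The other lists held no gene called by edgeR, and their medians lay between -0.01 and 0.35. They were monocyte genes (10 tested, median log2 fold change 0.27), giant cell genes (12, 0.03), dendritic cell genes (10, 0.12), cytotoxic and NK cell genes (10, 0.14), smooth muscle and pericyte genes (10, 0.28), endothelial genes (12, -0.01), lymphatic endothelial genes (6, 0.03) and Schwann cell genes (10, 0.28). With them were angiogenesis genes (26, 0.02), collagen and matrix genes (28, 0.12), metalloproteinases and inhibitors (18, 0.13), ribosomal protein genes (25, 0.14), cytokines and their receptors (28, 0.24), heat shock genes (20, 0.04) and circadian clock genes (18, 0.35). At an unadjusted p under 0.05 (15.9% of all genes) the count ran from 0 (NK cell and lymphatic genes) to 7 of 18 (metalloproteinases and inhibitors), all 7 higher in 4T1. In 5 of these 18 genes all 4T1 libraries lay above all 4T07 libraries and in 1 below (7.6% and 11.7% of all genes). At any fold, 3 of these 18 genes and 3 of 18 clock genes had an adjusted p under 0.10 (2.9% of all genes). The other lists had at most 2 such genes. DESeq2 called 1 cytokine or receptor gene and 1 clock gene, and limma voom called none.

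**Figure D4:**
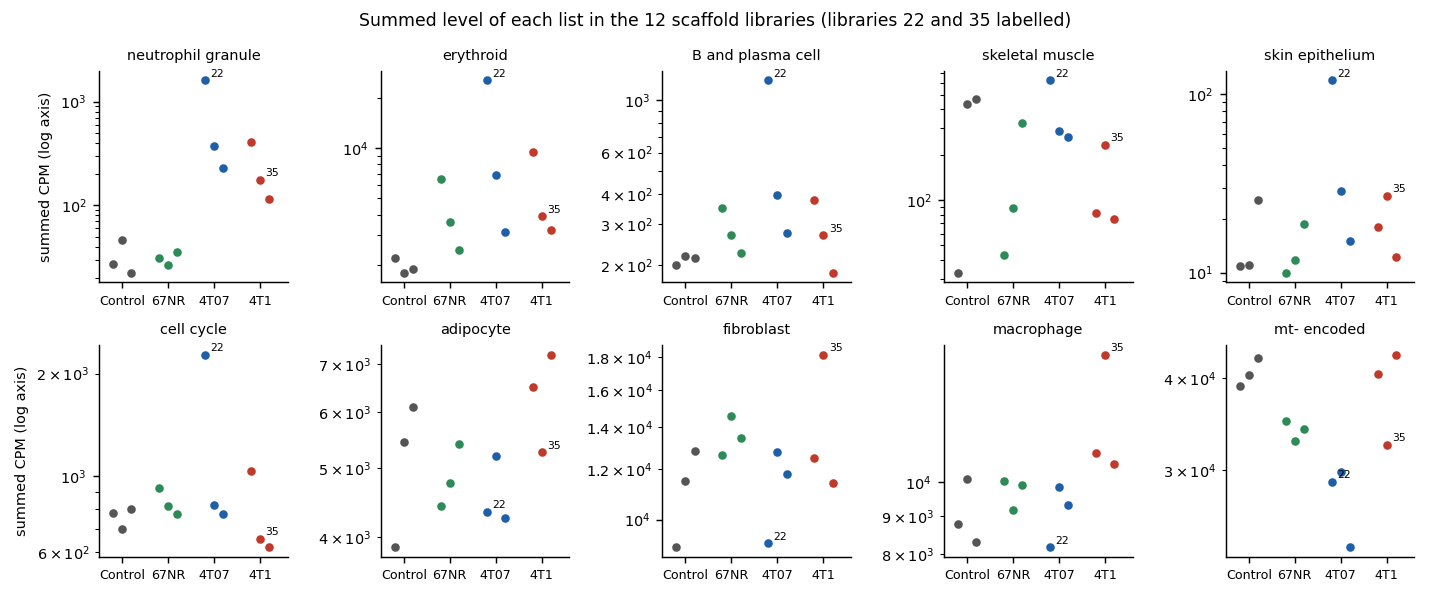
Summed level of 10 gene lists (CPM, log axis) in each of the 12 scaffold libraries, 1 point per library, with libraries 22 and 35 labelled. Library 22 is the highest of all libraries for neutrophil granule (1604 CPM), erythroid (25380 CPM) and B and plasma cell genes (1215 CPM), and library 35 is the highest for fibroblast (18190 CPM) and macrophage genes (14850 CPM).

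The levels in control and 67NR scaffolds show on which side the called genes stood. Over the 143 genes higher in 4T1 than in 4T07, the median log2 fold change against control scaffolds was -1.38 in 4T07 and 0.02 in 4T1, and over the 84 genes lower in 4T1 it was 1.47 in 4T07 and 0.05 in 4T1. Over all genes these medians were 0.05 and 0.02. The genes had been picked with the same 4T07 and 4T1 libraries, which moves such medians away from 0 for both lines, so they are a description. By libraries, all 3 control scaffolds lay above all 3 4T07 scaffolds in 118 of the 143 genes (11.5% of all genes) and below them in 75 of the 84 (24.2% of all genes). The 67NR scaffolds did so in 119 of 143 (13.6%) and 70 of 84 (21.0%). The 4T07 libraries that picked these genes enter the counts too, so the shares over all genes are no fair reference. These counts are likewise a description. Relative to all 3 4T1 scaffolds, the control scaffolds lay above in 10 and below in 15 of the 143 genes. In the 84 genes they lay above in 9 and below in 15. Against control scaffolds as such, 1592 genes (8.09%) were called in 4T07, 794 higher (4.04%) and 798 lower (4.06%), and 10 genes (0.0508%) in 4T1, 4 higher (0.0203%) and 6 lower (0.0305%). At any fold 11 genes (0.0559%) had an adjusted p under 0.10 in 4T1. The count for 4T1 moved widely, from 1 without control library 1 or 3 to 68 without library 36, with 28 without control library 2, 5 without 34, 3 without 35, 63 by DESeq2 and 0 when only the 2 groups were fitted.

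The same contrast was taken in the lungs, spleens and primary tumors of mice with the same lines, in libraries of their own. Of the 143 genes higher in 4T1 scaffolds, 36 were called higher and 3 lower in 4T1 relative to 4T07 primary tumors (over all genes 4.98% and 7.07%), 33 higher and 15 lower in lungs (12.5% and 10.8%), and 16 higher and 2 lower in spleens (1.04% and 2.05%). Of the 84 genes lower in 4T1 scaffolds, 42 were called lower and none higher in tumors, 24 lower and 1 higher in lungs, and 12 lower and none higher in spleens. Which lung, spleen or tumor came from the mouse of which scaffold is not in the labels.

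Single genes differed in how far the other tissues shared the scaffold difference. Ifitm1 was higher in 4T1 in all 4 tissues, from 107 ± 17.0 to 432 ± 198 CPM (SD, n = 3) in lungs, from 79.1 ± 22.4 to 390 ± 91.3 CPM in spleens and from 43.1 ± 10.9 to 125 ± 25.0 CPM in tumors, and in none of them was the difference from the scaffold called (interaction adjusted p = 0.410, 0.445 and 0.927). Wfdc17 differed more between 4T07 and 4T1 in the lung (98.0 ± 18.4 and 508 ± 164 CPM) and spleen (68.4 ± 23.5 and 469 ± 143 CPM) than in the scaffold, with an interaction adjusted p of 0.0245 and 0.0247. Over all genes, the difference between tissues was called in 26% for the lung, 2.01% for the spleen and 9.29% for the tumor. Cxcl9 was lower in 4T1 than in 4T07 tumors (44.1 ± 25.6 against 229 ± 41.9 CPM) and lungs (2.96 ± 2.40 against 19.0 ± 4.25 CPM). Tap1 was lower in 4T1 tumors (62.7 ± 16.2 against 329.5 ± 19.0 CPM) and lungs (61.7 ± 12.8 against 142 ± 19.9 CPM). In spleens neither Cxcl9 nor Tap1 passed the test (adjusted p = 0.886 and 0.224). Rnase2a was lower in 4T1 tumors (16.5 ± 7.67 against 52.8 ± 8.15 CPM) and lungs too. Spon2 was lower in tumors, at 8.22 ± 3.42 CPM in 4T07 and 2.68 ± 0.358 CPM in 4T1 (adjusted p = 1.14e-03).

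The adipocyte genes were at low levels in lungs and spleens. In lungs 2 of the 5 genes called in scaffolds were called higher in 4T1 as well, Cidec from 1.83 ± 0.978 to 6.56 ± 1.18 CPM (log2 fold change 1.88, adjusted p = 0.0140) and Retn from 1.20 ± 0.446 to 3.21 ± 1.09 CPM (log2 fold change 1.45, adjusted p = 0.0447). The other 3 did not pass the test there. Adipoq was at 3.53 ± 0.981 CPM in 4T07 and 5.63 ± 1.07 CPM in 4T1 (adjusted p = 0.371) and Fabp4 at 29.2 ± 8.31 and 27.8 ± 4.68 CPM (adjusted p = 0.989), and Plin1 had a log2 fold change of -0.05 (adjusted p = 0.971). In tumors 2 of the 5 were called higher. Plin1 was at 16.5 ± 7.67 and 36.6 ± 25.4 CPM (adjusted p = 0.0485), and Adipoq at 22.5 ± 13.9 and 49.5 ± 28.0 CPM (adjusted p = 0.0535). Cidec, Retn and Fabp4 did not pass the test in tumors (adjusted p = 0.270, 0.108 and 0.597). Fabp4 in spleens was at 39.2 ± 27.9 CPM in 4T07 and 15.2 ± 1.98 CPM in 4T1 (log2 fold change -1.29, adjusted p = 0.0948), and the difference between scaffold and spleen was called (interaction adjusted p = 0.0213). Clec4d was lower in 4T1 tumors, at 23.3 ± 8.46 CPM in 4T07 and 11.2 ± 0.605 CPM in 4T1 (log2 fold change -0.996, adjusted p = 8.88e-03), and higher in 4T1 scaffolds, lungs and spleens.

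**Figure D5:**
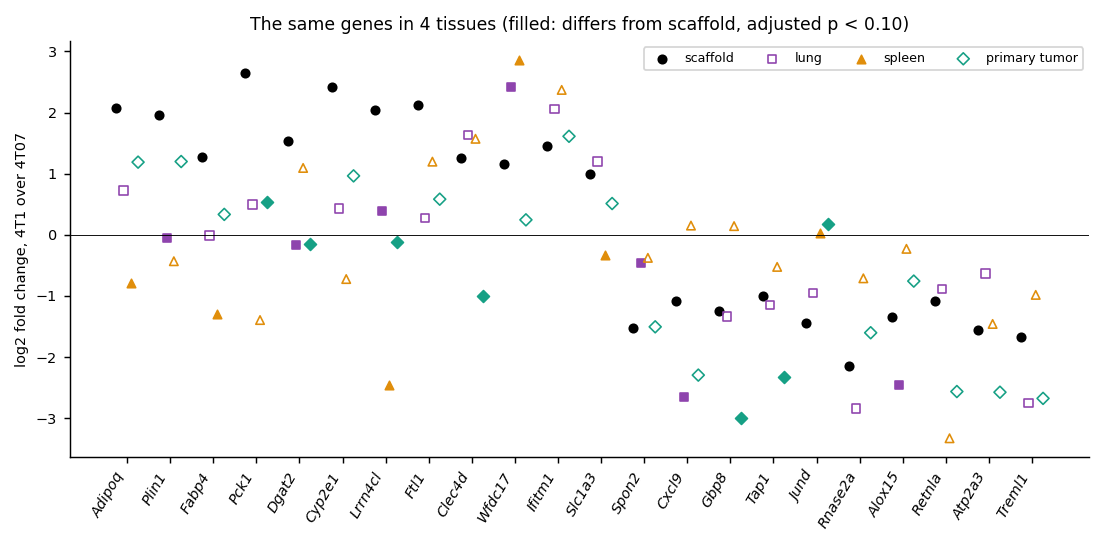
Log2 fold change (4T1 over 4T07) of 22 named genes in scaffolds (black), lungs, spleens and primary tumors, 1 point per tissue and gene from 3 libraries per group. A filled point in lung, spleen or tumor marks a difference from the scaffold with an adjusted p under 0.10, as for Clec4d in tumors (log2 fold change -0.996 against 1.25 in scaffolds), and Ifitm1 lies above 0 in all 4 tissues.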

How the data were processed

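RNA was measured in scaffolds, lungs, spleens and primary tumors with the QuantSeq 3' mRNA kit with unique molecular identifiers. The deposited table holds raw counts per gene symbol, which the authors made with Trim Galore 0.5.0, STAR 2.6.0 and featureCounts per the submitters' processing notes. The genome build, the annotation and whether identifiers were collapsed are not given in the sources used here. Library columns were matched to the labels by the library number. The 120 of 55487 lines that repeat a symbol were summed with it, which left 55367 symbols. The 19673 symbols with more than 10 counts over the 6 compared libraries were tested with edgeR 4.0.16 in R 4.3.3 (robust quasi-likelihood test, TMM normalization), in one fit of all 12 scaffold libraries with a coefficient for each of the 4 groups, and p-values were adjusted by Benjamini-Hochberg over all of them. A gene was called where its adjusted p was under 0.10 and its fold change over 2, as in the study. Differences between tissues were tested as interactions in one fit of all 45 libraries and called at an adjusted p under 0.10. DESeq2 1.42.0 and limma 3.58.1 voom were alternatives, along with other filters and scalings, fits of the compared groups alone, leaving out each library, and, chosen after seeing the data, leaving out libraries 22 and 35 together and offsets for mRNA length or GC content. An exact permutation test of 3 against 3 libraries cannot give a p below 0.1, so single genes were tested only in these fits.

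Genes named in the text are the 12 called genes with the largest change in each direction (groups without overlap, mean of at least 5 CPM), the 9 genes of the study's signature, and up to 5 called members of each of 42 gene lists, 21 of them of cell type markers. For some lists without a call the 2 most abundant members are named as well. Further genes are said to be chosen after their values were seen. The members and lists were chosen with earlier results of these data known. List members with 10 or fewer counts over the 6 libraries, among them 6 of 13 mitochondrially encoded genes, were not tested. In counts simulated for the 19673 genes with 200 of them changed 4-fold, edgeR called 96.5% of the changed genes for 4T1 against 4T07 scaffolds, DESeq2 97.0% and limma voom 95.0%, and the interaction with the lung was called for 83.0%. Of the calls, 4.46%, 4.43%, 5% and 10.3% in the same order fell on unchanged genes. The changed genes were drawn from those with higher counts. Otherwise all scaffold libraries shared the same mean level per gene, so libraries that stand apart over many genes were not simulated. These shares therefore do not cover the dependence of the calls on single libraries.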

Additional observations from a re-analysis of the deposited data

Results flagged for a closer look

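For 48 genes, the 4T1 against 4T07 difference in scaffolds was set against the same difference in the lung, spleen and primary tumor, and 38 differences between tissues in 30 genes had an adjusted p under 0.10 (edgeR interaction test over all 45 libraries), 21 with the lung, 7 with the spleen and 10 with the tumor. Over all genes tested this was so in 26% for the lung, 2.01% for the spleen and 9.29% for the tumor. The values are the log2 fold change in scaffolds minus that in the other tissue, so they hold both a gene that changed less elsewhere and one that changed more. The scaffold contrast that chose most of these genes is part of each value.

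Against the lung, the genes of fat and of metabolism differed by 2.02 for Plin1 (SE 0.80, adjusted p = 0.0708), by 1.72 for Dgat2 (SE 0.47, adjusted p = 7.96e-03) and by 3.30 for Car9 (SE 0.74, adjusted p = 1.16e-03), the last with levels under 2 CPM in the lung. Immune genes differed by 1.59 for Cxcl9, by 1.12 for Alox15, by 1.28 for Cma1 and by -1.25 for Wfdc17, and in Cxcl9, Alox15 and Wfdc17 the lung had the larger change in the same direction (log2 fold change -2.66, -2.45 and 2.42). For Ido1 the value was -7.05, but all 4T07 lungs were at 0 counts and the 4T1 lungs averaged 0.151 CPM, so its size depends on the fitted value of a gene at 0. Predicted genes and pseudogenes differed by 3.74 (Gm6407), 2.93 (Gm8129), 3.27 (Ftl1-ps1), 2.88 (Gm11956), -1.17 (Gm11592) and -1.64 (Gm10521), and Lrrn4cl and Fam221b by 1.68 and 2.13. Of the signature genes, Spon2 differed by -1.04, Dhx9 by 1.13, Pja2 by -0.83, Fhl1 by -2.21 and Soga1 by -1.41. In Dhx9, Fhl1 and Soga1 the lung value had the opposite sign to that of the scaffold, with Fhl1 at 121 CPM in 4T07 lungs and 429.8 CPM in 4T1 lungs.

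Against the spleen, the difference was 2.88 for Adipoq (SE 0.85, adjusted p = 0.0958), 2.58 for Fabp4 (SE 0.60, adjusted p = 0.0213), 4.51 for Lrrn4cl (SE 0.69, adjusted p = 8.87e-05), 1.71 for Cma1, 1.35 for Slc1a3, -1.46 for Jund and -1.69 for Wfdc17. In Jund the spleens of both lines lay close together, at means of 66.9 CPM in 4T07 and 65.3 CPM in 4T1.

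Against the tumor, the difference was 2.26 for Clec4d (SE 0.37, adjusted p = 4.69e-05), which was lower in 4T1 tumors and higher in 4T1 scaffolds. Gbp8 (1.76) and Tap1 (1.33) were lower in both tissues and changed more in the tumor, where mean levels went from 70.1 to 8.32 CPM and from 329.5 to 62.7 CPM. The remaining values were 3.00 for Cxcl3, -1.60 for Jund, 5.08 for Gm6407, 2.12 for Pck1, 2.17 for Lrrn4cl, 1.69 for Dgat2 and -0.95 for Soga1.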

How the results depend on the processing

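The count of 227 called genes (143 higher, 84 lower) became 499 (245 and 254) with no filter on low counts, 32 (22 and 10) when only the 2 groups were fitted and 443 (289 and 154) with libraries 22 and 35 left out together, an alternative chosen after seeing the data, and limma voom called 55 genes lower. The cause was not tested, beyond the larger number of genes tested without a filter. Leaving out 1 library gave 17 to 299 calls, 11 to 216 higher and 6 to 95 lower, and the lowest counts came without library 24. DESeq2 (288), DESeq2 size factors (230), a minimum of 10 counts in each compared library (187), a filter over all 12 scaffolds (212), leaving out the 100 most abundant genes (225), and offsets for mRNA length (198) and GC content (203) stayed within 1.5 times the count. For 4T1 against control scaffolds the 10 calls became 175 with no filter, 0 with only 2 groups and 63 by DESeq2, and 1 to 68 without 1 library. For 4T07 against control, 960 genes were called with the minimum of 10 counts, and 1145 to 1593 without 1 library. Called interactions with the spleen numbered 798 with no filter, 617 by DESeq2 and 106 with only the 4 groups concerned, and those with the tumor 1143 with only the 4 groups. Without 1 library they numbered 4335 to 5129 for the lung, 272 to 521 for the spleen and 1507 to 1797 for the tumor.

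No called gene named in the text changed direction under any alternative in which it was tested. Named genes that were not called did. With libraries 22 and 35 left out, the log2 fold change was -0.13 for Sdc1, 0.0400 for Top2a, 0.34 for Birc5, 0.73 for Hba-a1, 0.14 for Hbb-bs, -0.24 for Col1a2 and -0.14 for Col1a1. The GC offset gave -0.00390 for Ndufs1. Without 1 library it ran from -0.0741 to 0.106 for Sdc1, from -1.17 to 0.0877 for Birc5, from -1.69 to 0.443 for Hba-a1, from -0.0856 to 0.320 for Col1a2, from -0.0444 to 0.203 for Col1a1, from -0.0496 to 0.192 for Atp5a1, from -0.0134 to 0.0700 for Ndufs1 and from -0.259 to 0.209 for Il7r. The cause was not tested. No paired analysis was possible because the library numbers are all different and the labels do not link the samples of one group with those of another.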
